A study of Mus musculus and synthetic construct with 21 samples.

Results

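PPARγ binding to reporter plasmids was measured at genomic sites of the class named w, each built as a native element and as an element whose motif is taken here to be altered. The members were chosen by name from the binding table of pool 1. They were the elements with the code wt (native) and wd (altered) that share a site number. The table listed 567 native and 566 altered w elements among 1992 elements in all, and 541 of the 750 w sites of pool 1 had both forms. A further 26 sites were listed in the native form only and 25 in the altered form only, and 158 in neither. The names do not spell out w, c, t or d, and an altered element carries the native 16-base sequence in its name, so the altered sequence itself was not read. All 541 named 16-mers had their best, or equal best, match to a DR1 motif at positions 4 to 16 of the named strand. Both forms of a site carry the same 16-mer in their names, so this match cannot show which form is native.

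All elements stood in 1 pool of plasmids in 3T3-L1, mouse pre-adipocytes that become fat cells under hormonal induction. Induction medium held insulin at 1.7 µM, dexamethasone at 1 µM and IBMX at 0.5 mM for 48 h, and DNA was taken 16 h after transfection. The ChIP library came from a pull-down with an antibody labelled PPARG, and the input library, labelled WCE, from DNA without the pull-down. Native and altered plasmids shared the cells, the antibody and both libraries. Binding was thus measured on transfected plasmids and not at the chromosomal site. There was 1 ChIP and 1 input library, with no replicate, so no p-value is given, and intervals below cover counting error only. No molecular identifiers are named in the sources used here, and PCR copies are not independent molecules, so errors can exceed these intervals.

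PPARγ, a ligand-activated nuclear receptor, is the master regulator of fat cell formation. It binds DNA as a dimer with RXR at DR1 elements, direct repeats of the half-site AGGTCA with a spacer of 1 base. In this dimer PPARγ occupies the 5′ half-site and RXR the 3′ half-site, and PPARγ also contacts bases just 5′ of the repeat. The named 16-mers hold that 5′ extension (positions 1 to 3), the 5′ half-site (4 to 9), the spacer (10) and the 3′ half-site (11 to 16). In the sequences printed here, capitals mark the bases that equal AGGTCA at their place in either half-site.

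The first set shows the sites where the native form was bound most in excess of the altered form, apart from site 500 on another chromosome, whose sequence is not shown. Site 422 and site 450, the only 2 paired sites with both half-sites intact, close the set.
site 403 (chr7:107610206-107610221, + strand): agtgGGTgAagGGTCA
site 390 (chr2:178228865-178228880, + strand): tctgGGggAaAGGTCA
site 402 (chr2:151566408-151566423, + strand): agtAGGTCAaAGtTCA
site 457 (chr4:134188325-134188340, - strand): attgGGTgAaAaGTCA
site 20 (chr4:86336173-86336188, + strand): actAGGgCAaAGtTCA
site 269 (chr9:23067380-23067395, - strand): agggaGgaAagGGTCA
site 4 (chr3:96359334-96359349, + strand): accAGGTgAaAGGTtA
site 683 (chr4:15871968-15871983, + strand): tgtAGGTaAaAGGTCc
site 3 (chr6:5459905-5459920, + strand): agtAGGTgAagGGTCA
site 422 (chr7:135719518-135719533, - strand): tttAGGTCAgAGGTCA
site 450 (chr5:112670341-112670356, - strand): tggAGGTCAaAGGTCA

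The second set shows sites that went another way. Sites 492, 444, 182 and 384 were bound at least 2-fold less in the native form, and sites 739, 437 and 227 were bound strongly in both forms.
site 492 (chr9:32707627-32707642, + strand): gctgGGTgAgAGGgCA
site 444 (chr19:10113630-10113645, - strand): tttgGGgCAggGGgCg
site 182 (chr5:149764926-149764941, + strand): aagAGGgaAaAGGTCA
site 384 (chr10:82624925-82624940, - strand): actgGGgCAaAGagCt
site 739 (chr7:63222583-63222598, - strand): actcGGcCAtAGGTCA
site 437 (chr5:30478772-30478787, - strand): agtAGGgCAaAGGTtt
site 227 (chr4:59598224-59598239, + strand): accAGGcaAagGGgCA

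Positions are of mm9, the build in the submitters' processing notes. The names give starts and ends 16 apart, which were read as counted from 0 and are printed here counted from 1. No gene annotation of that build was used, so the sites are not assigned to genes. Binding is the log2 ratio of ChIP to input reads, after adding a pseudocount of 1 and dividing by the library totals (1987761 ChIP and 1381624 input reads). A binding of 0 means the same share of both libraries, and a difference of 1 between forms means 2-fold.

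Native w elements were bound more than their altered counterparts at most sites. Over the 541 paired sites, native binding had a median of 0.30 (quartiles -0.20 and 0.82) and altered binding a median of -0.18 (quartiles -0.58 and 0.27). Both forms spanned wide ranges that overlapped. The native minus altered difference was 0.51 ± 0.86 (SD over 541 sites), with a median of 0.44, or 1.36-fold. It was above 0 at 402 sites (74.3%), against a background of 68.7% over all 945 w and c pairs of the table. At 130 sites (24.0%) native binding was at least 2-fold above altered binding, against 21.3% of all pairs, and 27 of them passed 4-fold. In the other direction 4 sites (0.739%) passed 2-fold, against 1.90% of all pairs. These 4 had between 101 and 212 input reads in each form, and 0 sites passed in that direction among the 406 with at least 200 input reads in both. With the plasmid library of the reporter assay as the denominator in place of the input, 198 sites were at least 2-fold higher and 45 at least 2-fold lower. The median 95% counting interval reached 0.26 to either side of a site's difference. By that interval 334 sites lay above 0 (background 57.0%) and 81 below 0 (18.9%), while 126 included 0.

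Site 403 had the largest difference. Its native element took 2464 ChIP and 224 input reads, and its altered element 209 and 284, so that native binding was 2.93 and altered binding -0.97. The difference of 3.89 (counting interval 3.57 to 4.22) corresponds to 14.9-fold. Its 5′ half-site differs from AGGTCA at 2 bases and its 3′ half-site at 1. Site 500, with 1 mismatch in all, followed with 3257 ChIP and 471 input reads in the native form and 335 and 666 in the altered one, a difference of 3.78. Site 390 had 3053 and 245 reads against 289 and 256, a difference of 3.46. Its 3′ half-site is intact.

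Site 402 was the deepest of this group. It held 11820 ChIP and 2084 input reads in the native form and 1522 and 2040 in the altered form, giving levels of 1.98 and -0.95 and a difference of 2.93 (counting interval 2.81 to 3.04). Its 16-mer has an intact 5′ half-site, an A spacer and 1 mismatch in the 3′ half-site. The sites 457, 20, 269, 4, 683 and 3 completed the 10 largest, with differences between 2.64 and 2.85. In 9 of the 10 largest the native element was bound above the library average by 1.45 or more. The exception was site 269, whose native level was only 0.10. There the altered element had 68 ChIP and 294 input reads, at -2.62 the lowest altered level of any paired site. With the plasmid library as the denominator, the differences of these 10 sites ranged from 0.88 (site 269) to 3.72 (site 20), and all stayed positive.

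The 4 sites at least 2-fold lower in the native form were few and shallow. At site 492 the native element had 1 ChIP read and 127 input reads, against 179 and 154 for the altered element. That single read gives a difference of -6.22 with a counting interval of -8.25 to -4.18. At 1 read both lean on the pseudocount, and the interval is only a rough guide. Site 444 had 64 and 141 reads in the native form and 258 and 101 in the altered form, a difference of -2.47. Site 182 had 122 and 212 against 201 and 116, a difference of -1.58, although its 3′ half-site is intact. At site 384 the counts were 179 and 186 against 277 and 129, a difference of -1.15. The native elements of all 4 had fewer ChIP reads than the altered ones. The next lowest were site 553 (-0.99) and site 610 (-0.96), and site 610 was 1.16 with the plasmid library as the denominator.

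A high level in the native form did not always go with a large difference. The native element of site 739 had the highest binding of all, 5.04, from 5908 ChIP and 124 input reads. Its altered element was almost as high, 4.47, from 5500 and 171 reads, and the difference was 0.56 (counting interval 0.23 to 0.90). Site 437 stood at 3.00 and 2.50, and site 227 at 2.61 and 2.10. These 3 were the only paired sites whose altered element was bound at 2 or more. Their differences of 0.50 to 0.56 lay near the median over sites, and those of sites 437 and 227 were -1.10 and -0.060 with the plasmid library as the denominator. Site 601, in contrast, was bound at 3.24 in the native and 0.69 in the altered form. Across the 541 sites native and altered binding went together, with a Spearman rho of 0.433, a description over elements that share both libraries.

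Closeness of the 16-mer to DR1 went with the size of the difference. The number of half-site mismatches was counted in both half-sites together, with any spacer. The 2 sites with 0 mismatches had differences of 2.31 (site 422) and 1.74 (site 450). Site 422 had 1692 ChIP and 304 input reads in the native form and 313 and 280 in the altered one. Site 450 had 6397 and 1149 against 480 and 287. Both native levels were 1.95, far above the native median.

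The median difference was 0.75 over 24 sites with 1 mismatch, 0.71 over 75 sites with 2 and 0.50 over 176 sites with 3. It was 0.33 over 158 sites with 4, 0.17 over 91 sites with 5 and 0.44 over 15 sites with 6. The order held from 0 to 5 mismatches, and the small last class stood outside it. Native binding had the same order from 2 mismatches on, with medians of 0.39, 0.65, 0.41, 0.17 and -0.056 from 1 to 5 mismatches. Altered binding had medians of -0.36, -0.078, -0.17, -0.20 and -0.19 in these classes, a narrower range from 2 to 5 mismatches than that of native binding. The share of sites at least 2-fold higher was 35.6% (36 of 101) with 0 to 2 mismatches and 16.0% (17 of 106) with 5 or 6. Across sites rho was -0.219 between mismatches and difference, -0.264 with native binding and -0.0514 with altered binding (n = 541 each). These are descriptions over sites that share both libraries. Between the difference and the number of G and C bases in the 16-mer rho was -0.109. The median number of these bases was 8 in each class from 1 to 4 mismatches, 9 with 5 and 8 with 6. From 1 to 6 mismatches the SD within a class, between 0.49 and 1.05, exceeded the gap between neighbouring medians. The 2 sites with 0 mismatches stood apart from the class with 1 by more than either SD (0.41 and 1.05).

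Single close matches still varied widely. Site 35, with an intact 5′ half-site and 1 mismatch in the 3′ one, took 2016 ChIP and 238 input reads in the native form and 632 and 348 in the altered one, a difference of 2.22. Site 189, also with 1 mismatch, had 1071 and 714 against 1328 and 910, a difference of 0.039. Site 311 was bound less in its native form, by -0.39 (counting interval -0.68 to -0.10). Among the 10 paired sites with the closest 16-mers, taken by lowest number within a class, 9 were above 0 and 4 passed 2-fold, against 74.3% and 24.0% of all paired w sites. These 10 hold only part of the class with 1 mismatch. Of all 24 sites in that class, 18 were above 0 and 9 (37.5%) passed 2-fold. Among the 10, site 55 changed sign with the plasmid library as the denominator, from 0.24 to -0.93.

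Mismatches were also counted in each half-site alone. With the 5′ half-site intact the median difference was 0.85 (28 sites), and with 1, 2 and 3 mismatches in it 0.49 (148), 0.43 (194) and 0.30 (141). The 30 sites with 4 mismatches there broke that order, with 0.46 and 9 sites past 2-fold. With the 3′ half-site intact it was 0.72 (76 sites), and with 1 and 2 mismatches 0.50 (199) and 0.31 (202). The order ended there as well, with 0.44 for 3 mismatches (59 sites) and 0.33 for 4 (5 sites). Native binding was 0.70 at the median in both classes with an intact half-site. Where each half-site had at most 1 mismatch, 28 of 70 sites (40.0%) passed 2-fold, against 24 of 160 (15%) where each had at least 2. Sites with at most 1 mismatch in the 3′ half-site only passed at 57 of 205 (27.8%), and those with at most 1 in the 5′ half-site only at 21 of 106 (19.8%). Which half-site weighed more was not tested.

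Base by base, sites with the consensus letter had the larger median difference at 11 of the 12 half-site positions. The gap was widest at the second position of the 3′ half-site (position 12), 0.47 with G (478 sites) and 0.21 without (63 sites). It was next widest at the first position of that half-site (position 11), 0.45 with A (470) and 0.20 without (71). The exception was position 13, with 0.43 and 0.44. Several gaps were under 0.02, among them those at positions 5, 7, 8 and 9. The share past 2-fold was lower with the consensus letter only at position 8 (22.4% against 26.5%). Median native binding was lower with it only at positions 9 (0.28 against 0.60) and 16 (0.28 against 0.35).

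The spacer, which the mismatch count leaves out, was A or G at most sites. Sites with an A spacer had a median difference of 0.50 and native binding of 0.38 (347 sites). Those with a G spacer had 0.25 and 0.046 (173 sites). The few sites with C (13) or T (8) did not stand below A, with median differences of 0.71 and 0.46 and native binding of 0.23 and 0.77. Altered binding was alike with A and G, at -0.17 and -0.19. The share of sites at least 2-fold higher was 28.0% with an A and 16.8% with a G. Counting a spacer other than A as a further mismatch moved rho between mismatches and difference from -0.219 to -0.278.

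The median difference also varied with the 5′ extension, compared here only among the more common ones. The 95 sites that open with ACT and the 73 that open with AGT had medians of 0.57 and 0.67, and 32.6% and 31.5% of them passed 2-fold. The 38 sites with TCT and 52 with TGT had 0.36 and 0.34, and 23.7% and 26.9% of them passed. The 23 sites with AGC had 0.37, with 26.1% passing. The 21 sites with AGG had 0.36, and 2 of them passed. Over all paired sites the share was 24.0%. The SD of the difference within each of these groups, between 0.75 and 0.89, exceeded the gaps between their medians. Which strand of the genome held the motif made little difference, with medians of 0.38 on the plus strand (296 sites) and 0.48 on the minus strand (245).

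The same 16-mer did not give the same difference at every site. The 541 sites held 529 distinct 16-mers, and 8 of these recurred, at 20 sites in all. The SD of the difference among sites with a common 16-mer was 1.01, against 0.86 over all sites. For native binding the SDs were 0.80 and 0.89. The 2 sites 601 and 743 share a 16-mer with an intact 3′ half-site and had differences of 2.54 and 0.95. Of the 8 recurring 16-mers, that of sites 252 and 500 had the widest range, with 0.91 and 3.78. That of sites 177 and 431 had the narrowest, with 2.03 and 1.75. The sign was the same at all sites of a 16-mer for 5 of the 8.

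Both 16-mers that recurred at 3 or more paired sites are shown because each stands in a tandem array, so that their elements may overlap.
sites 487, 278, 116, 97 and 111 (chromosome 11, - strand): tgtgGGTCAcAGGcCc
sites 676, 599 and 477 (chromosome 3, + strand): aggAGGggAagGGTCt
The 5 sites on chromosome 11 lie between chr11:68546956-68546971 (site 487) and chr11:68547176-68547191 (site 111), 44 or 88 bases apart. From the first to the last along the chromosome their differences were 1.43, 0.20, 1.87, -0.40 and -0.65. Native levels stayed between -0.41 and 0.54, while altered levels ran from -1.48 to 0.65. The 3 sites on chromosome 3, 41 bases apart, had differences of -0.70, -0.61 and 0.46. With the plasmid library as the denominator, sites 278 and 487 changed sign to -0.35 and -0.16 and site 599 to 0.12.

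Some w sites lie so close together that an element altered at 1 motif could still hold the next one. The length of the elements is not given in the sources used here, so which elements overlap was not determined. Of the 541 paired sites, 94 lay within 100 bases of another w site of the pool. Their median difference was 0.36, and 20.2% passed 2-fold. The other 447 sites had a median of 0.45, and 24.8% passed. The median number of mismatches was 4 at the sites with a near neighbour and 3 at the others, and its part was not tested. Altered binding was the same at the median, -0.18 in both. Over the 42 pairs of neighbours with all 4 elements listed, rho was 0.292 between native levels, 0.373 between altered levels and 0.0741 between differences. These values describe elements that can share sequence.

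The same 16-mers in c surroundings gave a partly matching order. Each w site has a c site of the same number and the same 16-mer elsewhere in the genome, and all 4 elements were listed for 293 numbers. There the native minus altered difference was 0.48 ± 0.90 at w sites and 0.29 ± 0.83 at c sites (SD, n = 293 numbers). It was larger at the w site for 175 numbers. Across numbers rho between the w and the c difference was 0.309. Of the 74 numbers whose w site was at least 2-fold higher in the native form, 26 (35.1%) also passed at the c site, with a median c difference of 0.69. Of the 216 numbers within 2-fold at the w site, 23 (10.6%) passed at the c site, with a median of 0.13. Over all 293 numbers 50 (17.1%) passed at the c site. A c counterpart was listed in both forms for 6 of the 10 largest w sites. At the c site 5 of these 6 passed 2-fold, against that share of 17.1%. They were site numbers 403 (2.55), 457 (2.47), 3 (2.05), 402 (1.55) and 20 (1.17), and number 269 did not pass (0.085). Sites 182 and 492 were lower in the native form in both classes (-1.37 and -0.96 at the c site), whereas number 384 was higher at its c site (2.53). Native levels of the 2 classes had a rho of 0.286 (339 numbers) and altered levels one of 0.0376 (317 numbers). The differences between classes rest on 1 pair of libraries and were not tested.

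Reporter activity was a second readout of the same plasmids. It is the median over up to 9 barcodes of the log2 ratio of RNA to plasmid reads, scaled to library totals. At the 541 paired sites the native minus altered difference in activity had a median of 0.51, and 155 sites (28.7%) passed 2-fold, against 15.1% of all w and c pairs of pool 1. Among the 130 sites with at least 2-fold more binding in the native form, 45 (34.6%) also passed 2-fold in activity and 83 stayed within 2-fold. Among the 407 sites with binding within 2-fold, 108 (26.5%) passed in activity. The median activity difference was 0.60 in the former and 0.47 in the latter. Of the 4 sites at least 2-fold lower in binding, 2 passed in activity, and the median activity difference of the 4 was 0.96. Across sites rho between both differences was 0.181, as a description of plasmids shared by the libraries.

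Activity varied widely among the 10 sites with the largest binding differences. Of these, 5 passed 2-fold in activity, against 28.7% of all paired w sites, and their median activity difference was 1.00 against 0.51. Site 4 had the largest activity difference among them, 2.73, from 1.97 in the native to -0.76 in the altered form. Sites 500 (-0.044), 402 (0.071), 269 (0.094) and 20 (0.17) had activity differences close to 0. Site 450, with both half-sites intact, was less active in its native form (-0.87) than in its altered form (-0.71). Site 601 likewise stood at -0.76 and -0.37.

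In the other direction, 7 of the 10 w sites with the largest activity differences in pool 1 had both forms in the binding table. Sites 548, 77 and 201 were not listed in both. All 7 had activity differences of 2.90 or more, and their binding differences ranged from -0.65 to 1.39. Site 100 had 7072 ChIP and 3480 input reads in the native form and 1164 and 1499 in the altered form, a binding difference of 1.39 beside an activity difference of 3.38. Sites 660 (1.16) and 126 (1.12) also passed 2-fold in binding, while sites 519 (0.72), 142 (0.50) and 199 (0.031) did not. Site 39 was bound less in its native form. It had 1711 and 751 reads there and 1112 and 311 in the altered form, a difference of -0.65 beside an activity difference of 3.21. With the plasmid library as the denominator the binding differences of sites 39 and 142 changed sign, to 0.53 and -0.81.

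Sites 39, 100, 126, 142 and 199 belong to the 25 w sites that the study took into its second pool. Of those 25, 22 had both forms here. Their binding difference was 0.78 ± 0.71 (SD, n = 22 sites), with a median of 0.88, and 20 of them were above 0. At least 2-fold higher were 9, against 24.0% of all paired w sites, and 0 were at least 2-fold lower. The highest was site 249, with 4268 ChIP and 412 input reads in the native form and 459 and 265 in the altered one, a difference of 2.58. Sites 704 (1.56), 539 (1.47), 591 (1.31), 246 (1.18), 281 (1.13) and 614 (1.09) passed as well. Site 322, the most active native element among these, had a binding difference of only 0.33. Site 342 (-0.24) was below 0 beside site 39, and changed sign to 1.36 with the plasmid library as the denominator, while sites 211 and 705 went from 0.94 and 0.090 to -0.37 and -2.14. As a group these 22 sites also had a larger activity difference between forms, with a median of 1.72 against 0.51 over all paired w sites. How the study chose its 25 sites was not examined here. That choice may rest on the same pool 1 activity, so the larger value cannot be told apart from selection.

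Input depth moved with several of these values. No listed element had fewer than 101 input reads. Native w elements that were listed had a median of 14076 plasmid reads in the reporter library, and those not listed had 6889. Binding was lower where the input was higher, with rho of -0.392 for native and -0.384 for altered elements. Native elements also had slightly more input reads than altered ones, by a median log2 ratio of 0.13. Between that ratio and the binding difference rho was -0.192. Input reads are the denominator of binding, so counting error in them pulls these rhos below 0, by an amount that was not estimated. An effect of depth on binding was not tested. Ranked by the lower input count of the pair, 43 of the 136 shallowest sites (31.6%) were at least 2-fold higher in the native form. Of the 135 deepest sites 20 (14.8%) were, and the median differences were 0.65 and 0.38. Median native binding was 0.55 at these shallowest sites and -0.19 at the deepest, and median altered binding was 0.14 and -0.50. Among the 382 sites whose forms had input counts within 1.5-fold of each other, the mean difference was 0.53, and 93 passed 2-fold higher and 3 lower. The part of input depth in the other results was not tested.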

How the data were processed

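The deposited values were raw read counts: ChIP and input counts per element of pool 1, and RNA and plasmid counts for 9 barcodes per element, per the file headers and the design text of the series. Per the submitters' processing notes, BWA 0.7.12 and build mm9 were used, with no roles stated. Filters are not given in the sources used here, but no listed input count was under 101. Elements needed 20 input counts, which all had, and barcodes 20 plasmid counts. Binding and activity were computed in Python 3.11.15 with pandas 2.3.3 as log2 ratios with a pseudocount of 1, scaled to column totals. With 1 library of each kind, calls rest on size alone (2-fold). The 95% counting intervals treat the 4 read counts of a site as Poisson counts. Alternatives were other pseudocounts, minimums, denominators and thresholds.

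ChIP counts could not be rebuilt as the input times the RNA over plasmid ratio of the same element, with 0 of 1992 values matched by the median barcode ratio and 1 by summed counts (tolerance 0.5). Binding in pool 2 is not analysed here. Sites were named by rule: the 10 largest and 5 lowest differences and the 5 highest and 3 lowest native levels among sites with all 4 counts at 20 or more, the 10 closest 16-mers, 16-mers at 3 or more sites, the sites of pool 2, and the 10 largest reporter effects. Sites 492, 743, 227, 177 and 431, where singled out, were named after their values were seen. Members and lists were chosen with earlier results of these data known.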

Additional observations from a re-analysis of the deposited data

How the results depend on the processing

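The mean native minus altered difference of 0.51 kept its direction under every alternative run. It was 0.49 with at least 200 input counts, 0.57 with the plasmid library as the denominator, 0.48 over numbers with all 4 elements, 0.44 by the median and 0.55 with counts summed over sites. Of the alternatives chosen after seeing the data, it was 0.54 without sites within 100 bases of another w site and 0.53 with input counts within 1.5-fold. The count of 130 sites at least 2-fold higher became 74 of the 293 numbers with all 4 elements, 198 with the plasmid denominator, 222 at 1.5-fold and 334 by the counting interval. The 4 sites at least 2-fold lower became 0 with at least 200 input counts, 45 with the plasmid denominator, 34 at 1.5-fold and 81 by the counting interval. Mean levels over all listed elements, 0.37 native and -0.13 altered, became 0.40 and -0.10 when scaled to the median element, and 0.30 and -0.17 by medians. The rank correlation across sites with mismatches was -0.28 with the spacer counted, and that with activity 0.13 with summed barcodes. With the plasmid denominator, 12 of 61 named sites changed sign: 39 (0.53), 55 (-0.93), 142 (-0.81), 211 (-0.37), 227 (-0.060), 278 (-0.35), 342 (1.36), 437 (-1.10), 487 (-0.16), 599 (0.12), 610 (1.16) and 705 (-2.14). The cause was not tested. Neither other pseudocount moved a named site beyond its counting interval, and the run with no count minimum changed nothing, since the lowest input count was 101. No paired analysis was possible because each kind of library was made once. Depth limits single sites, and counting intervals leave out variation between cultures, transfections and pull-downs.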
